A study of Caenorhabditis elegans with 2 samples.

Results

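The chaperone genes described here are the protein-coding Caenorhabditis elegans genes whose Ensembl name starts with dnj-, hsp- or cct-. The rule finds 59 of 19973 protein-coding genes, namely 29 dnj genes, 22 hsp genes and 8 cct genes. The data are peak lists from chromatin immunoprecipitation followed by sequencing (ChIP-seq) of TBX-2, a T-box transcription factor known for its role in pharyngeal muscle development. Both samples are biological replicates of 1 group, so there is no second condition: whole hermaphrodite L1 larvae of strain OP159, with genotype unc-119(ed3) III; wgIs159, collected 6 h after synchronization of L1 animals that had been starved after bleaching. TBX-2 carries a C-terminal GFP-FLAG tag from an integrated transgene, and was precipitated through GFP. The values therefore describe where the tagged protein was recovered in a mixture of all tissues, and cell types cannot be told apart. A peak at a promoter does not show in which cells the factor sat there or whether transcription of the gene depends on it.

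Chaperones help other proteins to fold and keep them from aggregating. The Hsp70 proteins bind exposed hydrophobic stretches of a client in a cycle driven by ATP, J-domain proteins (the dnj genes) bring clients to Hsp70 and stimulate its ATPase, and exchange factors release the nucleotide. Hsp90 acts on clients at a later stage, mitochondrial HSP-60 and the cytosolic CCT ring (the cct genes) enclose a client in a chamber, and small heat shock proteins hold unfolded proteins without ATP. Some of these genes are expressed in all growing cells, whereas others, such as the hsp-16 genes and hsp-70, are nearly silent until heat activates the heat shock factor HSF-1, which binds repeated nGAAn units.

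For each replicate, and for both pooled, the authors deposited 30000 regions that contain peaks and background. A further list, thresholded by irreproducible discovery rate (IDR), held 4384 peaks on assembly ce11, with a median signal of 145 and a range of 76.8 to 1894. Signal is the region's strength in the authors' files, in a unit the sources used here do not give, and rank 1 is the strongest region of a list. A gene was said to have a promoter peak where the summit of an IDR peak lay between 1000 bp upstream and 200 bp downstream of one of its transcript starts. The lists give no reads, so replicate depth is unknown, and the 95% Clopper-Pearson intervals below cover the counting of genes only. The genes were selected on their names after promoter peaks and peak signals of the ce11 IDR list had been seen for these families, so those values are a description and were not tested.

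The sequences around the summits that the results turn on are given first, read 5′ to 3′ on the strand of the chaperone gene from the RefSeq copy of WBcel235, the assembly that ce11 names. Each holds the 101 bases centred on the summit, except that the hsp-3 stretch ends where the transcript begins. The last is the whole 220-base stretch between hsp-16.2 and hsp-16.41, on the plus strand. The first 4 are the strongest hsp summits, cct-1 and cct-8 are the strongest cct summits, dnj-9 is the strongest dnj summit, hsp-110 and cct-5 show heat shock element cores at a summit, and the last is the stretch between the hsp-16 pair that had a peak. Capitals mark heat shock element cores, GAANNTTC or TTCNNGAA, which may overlap.
hsp-90 (chrV:14685722-14685822, plus strand): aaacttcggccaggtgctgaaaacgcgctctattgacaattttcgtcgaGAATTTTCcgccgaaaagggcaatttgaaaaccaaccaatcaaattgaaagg
hsp-60 (chrIII:1619084-1619184, plus strand): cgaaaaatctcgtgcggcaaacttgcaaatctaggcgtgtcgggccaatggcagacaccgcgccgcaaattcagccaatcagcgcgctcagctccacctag
hsp-3 (chrX:6092125-6092221, minus strand): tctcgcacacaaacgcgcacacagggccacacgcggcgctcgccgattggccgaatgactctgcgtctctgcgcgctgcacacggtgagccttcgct
hsp-1 (chrIV:17278508-17278608, plus strand): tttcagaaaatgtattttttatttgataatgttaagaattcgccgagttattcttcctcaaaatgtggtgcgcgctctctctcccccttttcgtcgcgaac
hsp-110 (chrIII:8447119-8447219, minus strand): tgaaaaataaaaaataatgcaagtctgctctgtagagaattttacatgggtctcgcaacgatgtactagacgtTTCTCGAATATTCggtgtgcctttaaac
cct-1 (chrII:8185161-8185261, plus strand): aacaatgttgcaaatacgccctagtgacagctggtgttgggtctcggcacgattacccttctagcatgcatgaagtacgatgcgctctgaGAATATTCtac
cct-8 (chrIV:1094313-1094413, minus strand): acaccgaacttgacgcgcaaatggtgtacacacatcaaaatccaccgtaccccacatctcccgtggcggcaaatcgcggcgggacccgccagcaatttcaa
cct-5 (chrIII:4508507-4508607, minus strand): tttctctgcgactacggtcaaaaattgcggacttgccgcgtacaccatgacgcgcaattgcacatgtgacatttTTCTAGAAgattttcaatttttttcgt
dnj-9 (chrII:4851766-4851866, plus strand): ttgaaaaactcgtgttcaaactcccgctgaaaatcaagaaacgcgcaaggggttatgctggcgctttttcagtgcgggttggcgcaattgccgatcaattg
hsp-16.2 to hsp-16.41 (chrV:1804958-1805177, plus strand): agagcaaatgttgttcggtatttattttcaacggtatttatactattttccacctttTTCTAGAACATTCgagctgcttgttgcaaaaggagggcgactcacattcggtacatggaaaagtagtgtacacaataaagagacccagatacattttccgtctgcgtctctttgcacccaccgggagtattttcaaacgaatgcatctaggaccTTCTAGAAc

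Of the 59 chaperone genes, 29 had an IDR peak in the promoter (49.2%, interval 35.9% to 62.5%), against 15.6% of all protein-coding genes (3114 of 19973). The share was 51.7% for the dnj genes (15 of 29, interval 32.5% to 70.6%), 36.4% for the hsp genes (8 of 22, interval 17.2% to 59.3%) and 75% for the cct genes (6 of 8, interval 34.9% to 96.8%). The 3 intervals overlapped, so the classes could not be ordered by these counts. The peaks of chaperone genes were also strong for this list. Their median signal was 320 (order-statistic interval 196 to 588, n = 29 genes), against 176 over all bound protein-coding genes. The 29 genes shared 28 distinct summits, and 10 of the 28 (35.7%) ranked among the 438 strongest IDR peaks, against 311 of 2487 promoter summits overall (12.5%). By class, the median signal was 733 for bound hsp genes, 285 for bound cct genes and 290 for bound dnj genes, and each class ran over a wide range.

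**Figure D1:**
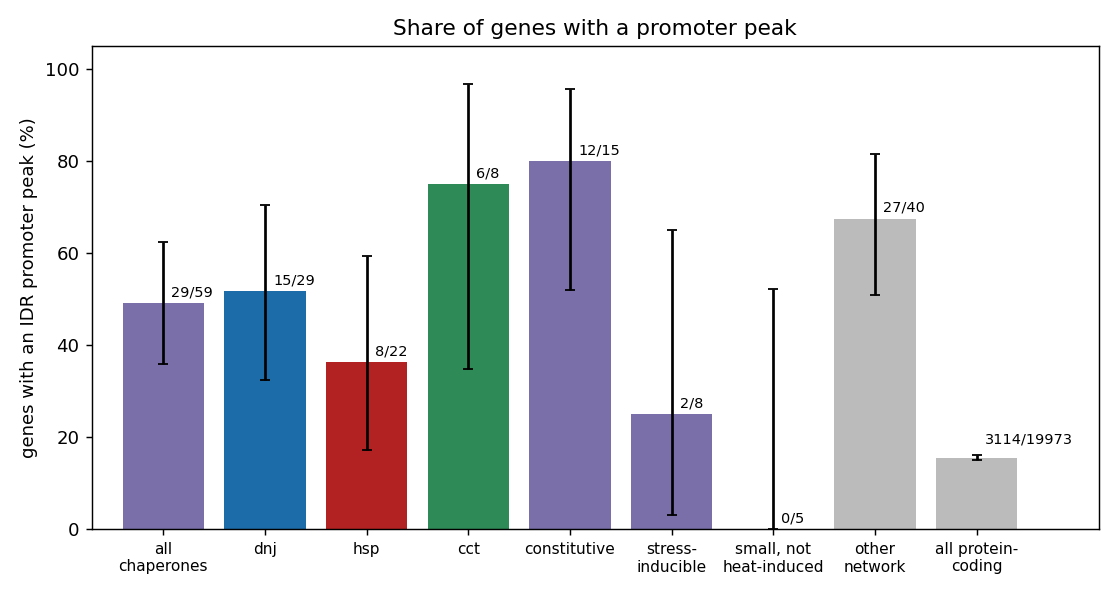
Share of genes with an IDR promoter peak (%) in each group of chaperone genes, in other genes of the chaperone network and in all protein-coding genes. Bars give the share, lines its 95% exact interval, and the numbers the genes with a peak over the genes in the group; the constitutive bar stands at 80%, the stress-inducible bar at 25% and all protein-coding genes at 15.6%.

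The bound hsp genes were, with the exception of 1 hsp-16 pair, the housekeeping members of the Hsp70, Hsp90 and Hsp60 families. The strongest peak of any chaperone gene lay at hsp-90, the cytosolic Hsp90 (chrV:14685585-14685961), with signal 483 in replicate 1, 748 in replicate 2 and 1226 in the IDR list. It ranked 14 in replicate 1, 18 in replicate 2 and 16 in the IDR list. Its summit lay in an intron of an hsp-90 transcript, 388 bp upstream of the nearest hsp-90 start. The next was hsp-60, the mitochondrial chaperonin (chrIII:1618966-1619320), with signal 404 in replicate 1 and 703 in replicate 2, ranks 34 and 23, and IDR signal 1106. These 2 genes were thus near the top of both replicates.

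The Hsp70 family followed. At hsp-3, which encodes an endoplasmic reticulum (ER) Hsp70 of the BiP type, the summit lay 47 bp upstream of the start (chrX:6091970-6092361), with signal 306 in replicate 1 and 565 in replicate 2, and IDR signal 871 at rank 66. At hsp-1, the cytosolic Hsc70, the peak (chrIV:17278321-17278731) had signal 279 in replicate 1 and 538 in replicate 2, and IDR signal 822 at rank 80. Both were among the few strong chaperone peaks with no other protein-coding promoter at the summit. For hsp-110, an exchange factor of Hsp70, the signal was 264 in replicate 1 and 378 in replicate 2, and the IDR signal 644 at rank 161 (chrIII:8447020-8447303). The mitochondrial Hsp70 gene hsp-6 was lower, with 93.6 in replicate 1, 177 in replicate 2 and an IDR signal of 272 at rank 927 (chrV:4827077-4827287). The mitochondrial Hsp90 gene hsp-75 had no region in its promoter in any of the 3 input lists, so the mitochondrial members of the class ran from IDR rank 28 to no region.

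Of the 8 subunits of the CCT ring, which folds actin and tubulin, 6 had a peak. At cct-1 (chrII:8185040-8185366) the signal was 348 in replicate 1 and 511 in replicate 2, with IDR signal 859 at rank 71. At cct-8 (chrIV:1094212-1094514) it was 307 in replicate 1 and 512 in replicate 2, with IDR signal 821 at rank 81. The other 4 were weaker. The IDR signal was 320 at cct-7, 251 at cct-6, 123 at cct-5 and 122 at cct-2. In replicate 1 these peaks had signals of 115, 87.9, 49.5 and 45.3 in the same order of genes, and in replicate 2 they had 204, 166, 73.2 and 72.5. Both remaining genes, cct-3 and cct-4, had a pooled region of signal 25.8 at ranks 12616 and 12618, well below the lowest IDR signal of 76.8. The subunits of this 1 complex therefore ran from the top 100 IDR peaks to below the threshold.

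Among the J-domain genes, 15 of 29 had a peak, and dnj-9 had the strongest (chrII:4851685-4851972), with signal 286 in replicate 1, 414 in replicate 2 and 704 in the IDR list at rank 129. Next came dnj-13, of the DNAJB1 type, with 217 in replicate 1 and 368 in replicate 2 and an IDR signal of 588, and dnj-19, of the DNAJA type, with 234 in replicate 1 and 349 in replicate 2 and an IDR signal of 581. Both are of types known as partners of cytosolic Hsp70. The cysteine string protein gene dnj-14, whose product sits on synaptic vesicles, had an IDR signal of 401, with 152 in replicate 1 and 253 in replicate 2. Then came dnj-29 (Sec63, a partner of the ER translocon) at 355, dnj-11 (a ribosome-associated DNAJC2) at 352, dnj-28 at 346, dnj-12 (DNAJA type) at 290 and dnj-22 at 279. In replicate 1 these 5 ranged from 103 to 149, and in replicate 2 from 170 to 226. The promoter of dnj-12 was the only one of a chaperone gene with a second IDR peak, of signal 168 at rank 1806, 174 bp upstream of a start.

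Weaker dnj peaks covered several compartments. The signal was 198 at dnj-7, of the ER DNAJC3 type, and 196 at dnj-10, a mitochondrial DNAJA3 type. It was 103 at dnj-5 and 91.2 at dnj-1. The weakest were dnj-25, an auxilin that takes part in uncoating clathrin vesicles, at 82.7, and dnj-20, an ER protein of the DNAJB11 type, at 76.9. Both of these summits lay in an intron of the gene itself, and that of dnj-25 was the only chaperone summit downstream of the nearest start, by 134 bp. No summit lay in an exon of a protein-coding gene. With protein-coding genes alone considered, 24 of the 28 were intergenic and 4 intronic, including the dnj-13 summit in an intron of dhgd-1. The summits at dnj-1, dnj-13, dnj-14, dnj-19 and hsp-6 also lay within transcripts of genes that are not protein-coding.

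**Figure D2:**
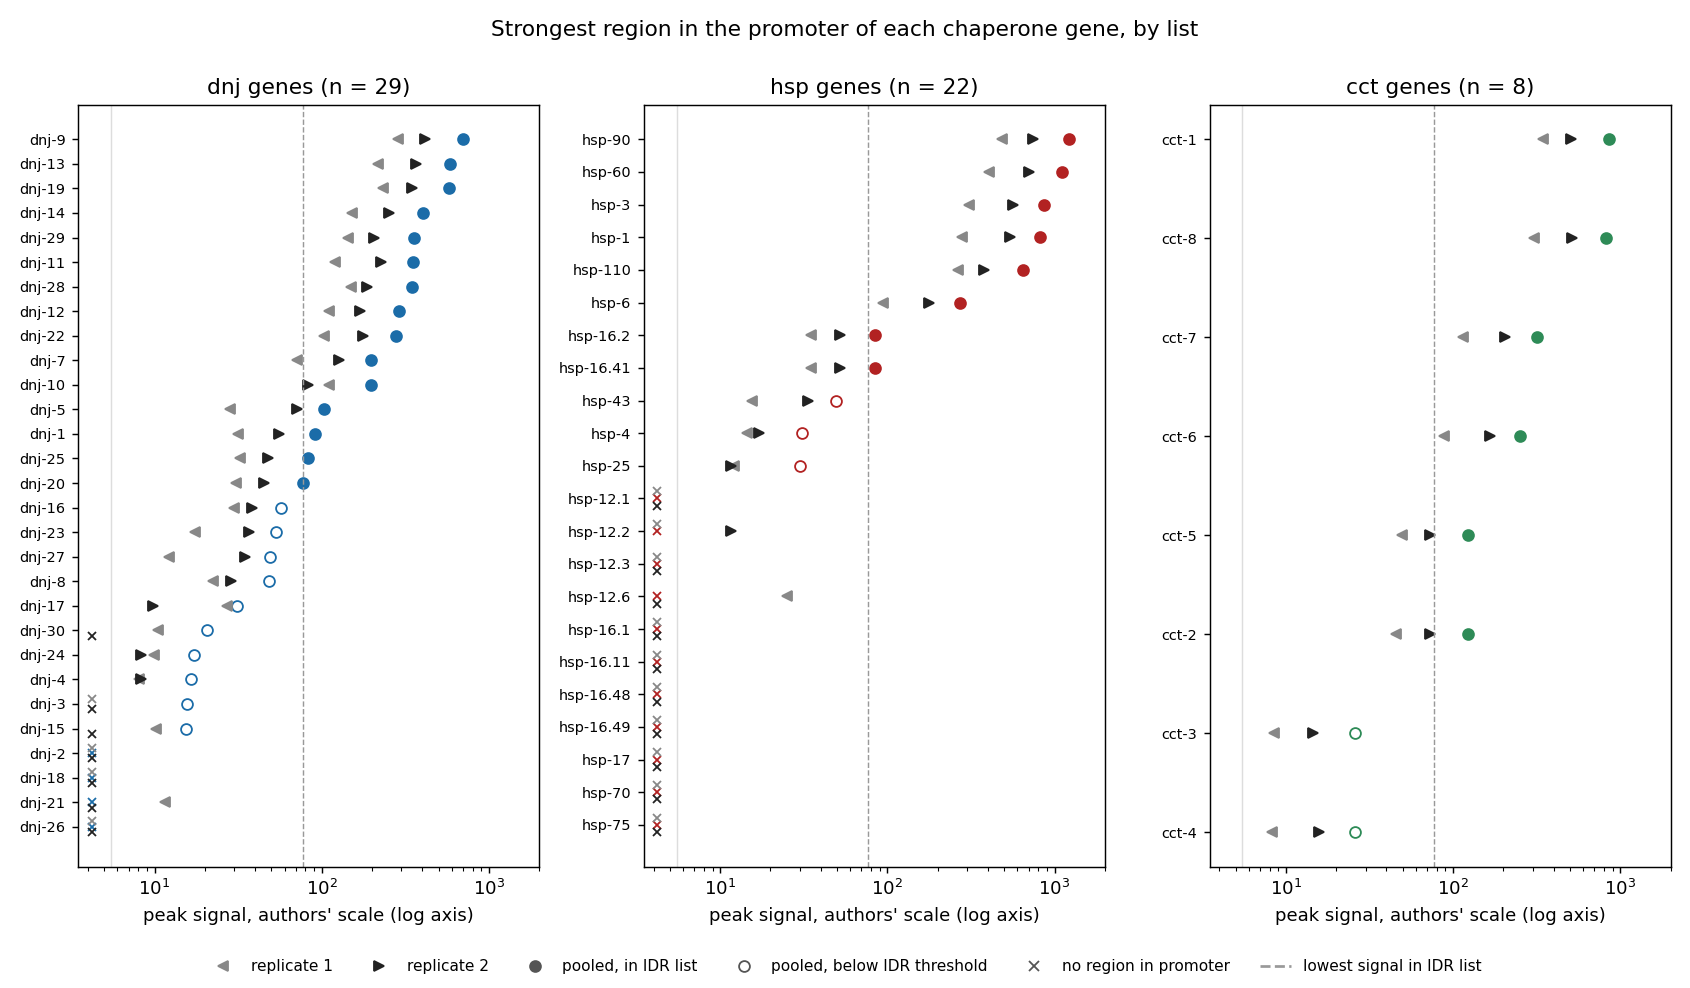
Signal (authors' scale, log axis) of the strongest region in the promoter of each of the 59 chaperone genes, by class, in replicate 1, replicate 2 and the pooled list. Filled circles are in the IDR list, open circles are below its threshold, and crosses at the left edge mark lists with no summit there. The dashed line is the lowest IDR signal (76.8). Pooled values run from 1226 at hsp-90 to no summit in the promoter at 15 genes.

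Constitutive and stress-inducible members were set side by side with lists drawn from textbook knowledge and with results of these peaks known. The constitutive list held hsp-1, hsp-3, hsp-6, hsp-60, hsp-75, hsp-90, hsp-110 and the 8 cct genes, and 12 of these 15 had a promoter peak (80%, interval 51.9% to 95.7%). The stress-inducible list held the 6 hsp-16 genes, hsp-70 and the ER stress gene hsp-4, and 2 of these 8 had one (25%, interval 3.19% to 65.1%), against 15.6% of all protein-coding genes. The intervals overlapped. The constitutive peaks ran in signal from 122 to 1226 with a median of 733, and the 2 stress-inducible genes shared 1 peak of signal 84.7. That value is 1 summit from a list limited to hsp names: the divergent pair F44E5.4 and F44E5.5, which encodes heat-inducible Hsp70 proteins and lies outside the naming rule, shared an IDR peak of signal 320 at rank 699, within the constitutive range. A list of small heat shock genes taken as not induced by heat, hsp-12.1, hsp-12.2, hsp-12.3, hsp-25 and hsp-43, had no IDR summit in the promoter window, and a count of 0 of 5 allows a share of up to 52.2%. With the nearest transcript start within 2000 bp, hsp-12.2 and hsp-12.3 gained one, so the count was then 2 of 5. These 5 genes are also limited to hsp names, and the count does not extend to chaperone genes named otherwise. One of those, sip-1, had an IDR peak of signal 410 at rank 437, with ranks 364 in replicate 1 and 515 in replicate 2. Its summit also lay in the promoter of sly-1. With hsp-3, hsp-6 and hsp-60 left out of the constitutive list, because organelle stress also raises them, 9 of 12 had a peak.

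Within the ER, hsp-3 and hsp-4 both encode Hsp70 proteins of the BiP type. The constitutive hsp-3 ranked 95 in replicate 1 and 54 in replicate 2, whereas the strongest pooled region at the stress-induced hsp-4 ranked 10463, with signal 30.7 and ranks 10914 in replicate 1 and 12450 in replicate 2. In the cytosol, hsp-1 ranked 80 in the IDR list, whereas the heat-inducible Hsp70 gene hsp-70 had no region in its promoter in any input list. The heat-inducible Hsp70 genes thus differed among themselves, with the F44E5.4 and F44E5.5 peak at ranks 757 in replicate 1 and 691 in replicate 2. The bound stress-inducible pair was hsp-16.2 and hsp-16.41, which are transcribed away from each other. Their common summit lay 149 bp upstream of hsp-16.2 and 72 bp upstream of hsp-16.41, with signal 35.2 and rank 3873 in replicate 1 and signal 51.8 and rank 4139 in replicate 2. At rank 3969 of 4384 it was a weak peak in the IDR list.

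The other 4 hsp-16 genes lie in a duplicated locus, and no value within the copies can separate them. The stretch with hsp-16.1 and hsp-16.48 (chrV:9086861-9088741) and the inverted stretch with hsp-16.49 and hsp-16.11 (chrV:9089156-9091036) were identical over 1881 bp, reaching past the genes on both sides, with 414 bp between them. Of the 31-base words in these 4 promoters, 93.3% to 100% occurred more than once in the genome, against 2.56% at hsp-16.2, 3.93% at hsp-16.41 and a median of 0% over the other 55 chaperone genes. The maximum over those 55 was 22.5%, at dnj-30, and dnj-10, dnj-28 and cct-3 had at least 20.4%. No pooled region touched the locus. A replicate 1 region, at rank 19360, reached into it with its summit outside, and a replicate 2 region, at rank 29849, had its summit between the copies, 173 bp from the nearer one. How reads with several matches were handled is not given in the sources used here, and the part of the duplication in these missing regions was not tested. Without these 4 genes, 2 of 4 stress-inducible genes had a peak (50%, interval 6.76% to 93.2%), as did 29 of 55 chaperone genes (52.7%). This count was added after the data had been seen. The 2 bound stress-inducible genes, hsp-16.2 and hsp-16.41, share 1 summit, so that interval treats 1 peak as 2 separate cases.

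A region of the pooled list had its summit in the promoter of 44 of 59 chaperone genes (74.6%), against 39.3% of all protein-coding genes. Of the 30 chaperone genes without an IDR peak, 15 had such a weaker region and 15 had none, namely 11 hsp, 4 dnj and 0 cct genes. Those just inside the threshold were dnj-20 at rank 4381, dnj-25 at rank 4082 and the hsp-16.2 and hsp-16.41 pair at rank 3969. Those just outside were dnj-16 at pooled rank 5866 (signal 56.9), dnj-23 at 6266 (53.4), hsp-43 at 6750 (49.1), dnj-27 at 6769 (49.0) and dnj-8 at 6872 (48.2). The next, dnj-17, stood at rank 10284 with signal 31.2 and ranks of 5083 in replicate 1 and 22969 in replicate 2. Further down, dnj-30, dnj-24, dnj-4, dnj-3 and dnj-15 had pooled ranks of 16439 to 23216, and hsp-25 had 10683. The small heat shock gene hsp-12.6 had a region in replicate 1 only, at rank 5490, and hsp-17 had none in any list. The 4 dnj genes with no pooled summit in the promoter were dnj-2, dnj-18, dnj-26 and dnj-21, whose product is of the TIM14 type, part of the motor that imports proteins into mitochondria. At dnj-2 an IDR region with its summit 1079 bp upstream did reach into the promoter window.

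The replicates ranked the chaperone peaks alike. Among each replicate's own 4384 strongest regions, 26 of the 28 summits were recovered in replicate 1, 26 in replicate 2 and 25 in both (89.3%), against 80.2% of all 4384 IDR peaks recovered in both. The IDR list was made from both replicates, so this recovery is not independent of it. The summits not recovered in both were those of dnj-5, dnj-25 and dnj-20, which had ranks of 4840, 4218 and 4435 in replicate 1 and of 2922, 4505 and 4723 in replicate 2. Signals were higher in replicate 2 at all but 1 summit, with a median ratio of replicate 2 to replicate 1 of 1.63 (range 0.756 to 2.51), against 1.61 over 4260 IDR peaks matched in both. The exception was dnj-10, with signal 110 in replicate 1 and 83.1 in replicate 2. It also had the largest ratio between its ranks, 850 in replicate 1 and 2438 in replicate 2.

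**Figure D3:**
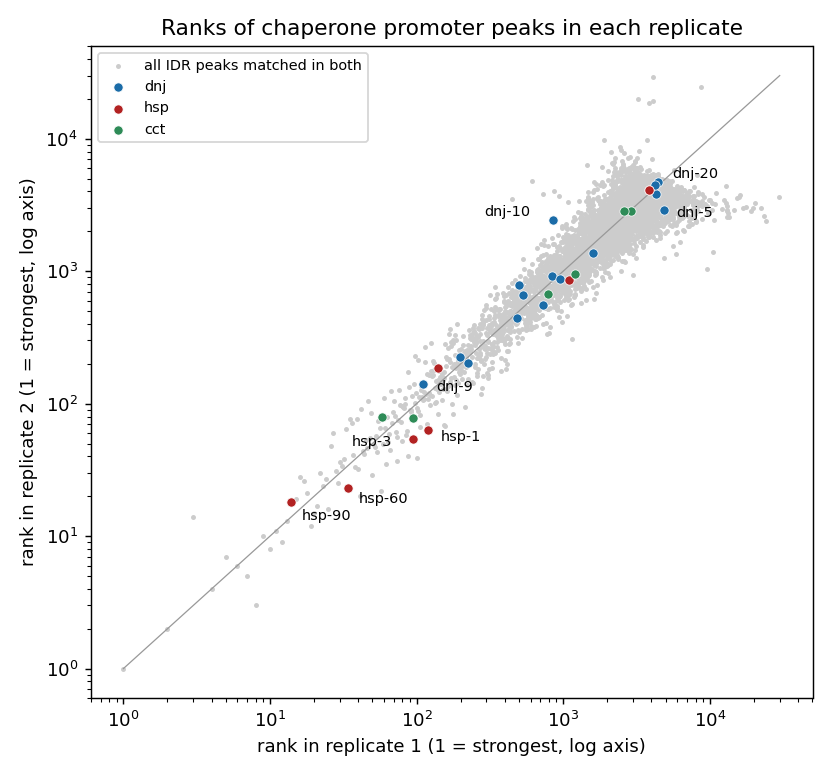
Rank of each chaperone promoter peak in replicate 1 (x) and replicate 2 (y), both on log axes with 1 the strongest, over all IDR peaks matched in both replicates (grey). The line marks equal ranks; hsp-90 lies at 14 and 18, and dnj-10 stands away from the line at 850 and 2438.

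Most chaperone peaks lay in promoters shared with another gene. The summit of 21 of the 29 bound chaperone genes (72.4%) also lay in the promoter of another protein-coding gene, against 49.4% of all bound protein-coding genes, and this held for 6 of 6 cct genes, 6 of 8 hsp genes and 9 of 15 dnj genes. All 21 had their nearest partner on the opposite strand, with the summit upstream of the nearest start of both genes, so the pairs are divergent there. The hsp-90 and C47E8.4 genes overlap, and that pair is divergent only at an internal hsp-90 start. The partner's start was nearer to the summit than the chaperone gene's in 16 of 21 cases, with a median distance of 312 bp for the chaperone gene and 184 bp for the partner. The chaperone gene was nearer at dnj-1, dnj-13, dnj-28, cct-2 and hsp-16.41. Peak lists alone cannot assign such a summit to either gene.

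The partners had varied roles. The summit at hsp-60, 608 bp upstream of its start, lay 205 bp upstream of Y22D7AL.10, which RefSeq annotates as a mitochondrial 10 kDa heat shock protein, the lid of the same chamber. That at hsp-110 lay 184 bp from rpn-3, which encodes a subunit of the proteasome lid and whose start is 444 bp from that of hsp-110. The cct-1 summit lay 188 bp from mig-5, a Dishevelled gene of Wnt signalling, and that of cct-6 lay 41 bp from alh-9, an aldehyde dehydrogenase gene. The dnj-19 summit lay 4 bp from a start of nhr-47, a nuclear hormone receptor gene, and 392 bp from dnj-19. That of dnj-12 lay 100 bp from mtx-1, a metaxin gene of the mitochondrial outer membrane. When each summit was given only to the nearest transcript start within 2000 bp, 16 chaperone genes kept or gained a peak (27.1%), with 1 of 8 cct genes and 3 of 15 constitutive genes, against 14.6% of all protein-coding genes. The cct and constitutive counts thus rest largely on counting both genes of a divergent pair. The dnj count fell to 10 of 29 (34.5%) and the hsp count to 5 of 22 (22.7%), both shares above the 14.6% of all genes.

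**Figure D4:**
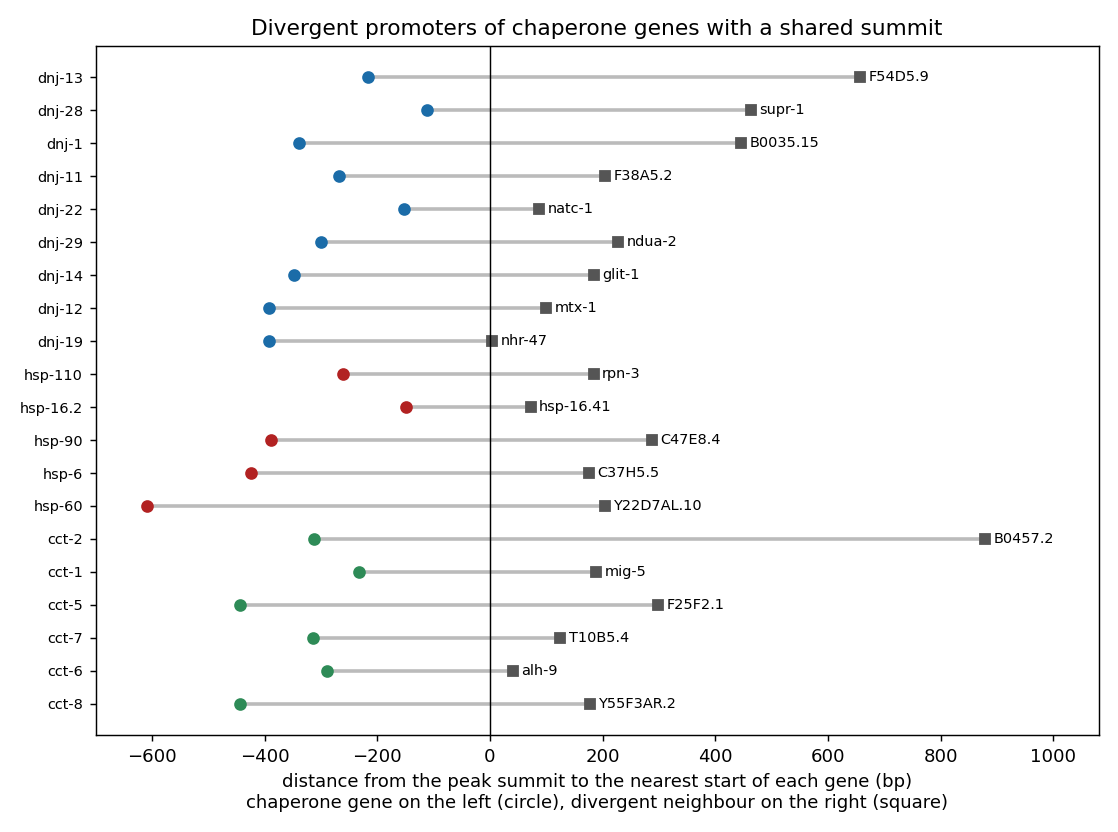
Distance in bp from the summit (vertical line at 0) to the nearest start of the chaperone gene (circles, left) and of its divergent partner (squares, right), for each shared summit, with the hsp-16.2 and hsp-16.41 pair drawn once. In 16 of the 21 genes the partner is nearer, as at dnj-19, where nhr-47 lies 4 bp from the summit.

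The arrangement of the upstream neighbour went with the presence of a peak, but the counting rule ties the 2 together. Promoter windows of divergent genes within 1000 bp overlap, so a summit near the neighbour's start could count for both genes. The part of this rule in the shares below was not tested. A divergent neighbour within 1000 bp was present at 27 of 59 chaperone genes (45.8%), against 17.2% of all protein-coding genes, and at 6 of 8 cct genes. With such a neighbour, 19 of 27 chaperone genes had a peak (70.4%, interval 49.8% to 86.2%), against 35.5% of 3438 protein-coding genes. Without one, 10 of 32 chaperone genes had a peak (31.3%), against 11.4% of 16535 protein-coding genes. The chaperone share was thus above that of all genes in both settings. Behind a neighbour on the same strand within 1000 bp, only 2 of 13 chaperone genes had a peak (15.4%), namely dnj-9 and dnj-10, against 10.2% of 5555 protein-coding genes.

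Of the 11 unbound genes in that last position, 7 lay 81 to 112 bp behind the next gene: dnj-2, dnj-3, dnj-4, dnj-15, dnj-18, dnj-30 and hsp-75. Genes so close together on a strand are often transcribed as operons in C. elegans, from a promoter ahead of the first gene. The next gene ahead had an IDR promoter peak for 3 of the 11 (27.3%), against 17.6% of 4986 unbound protein-coding genes in this position. Any gene ahead in the same row, with gaps of up to 1000 bp, had one for 7 of the 11 (63.6%), against 26.2%. The 2 groups differ in spacing, since the neighbour lay within 500 bp for 81.8% of these chaperone genes, against 63.4% of the protein-coding genes, and the part of this was not tested. For dnj-2, the summit ahead of B0035.3 lay 1079 bp from the dnj-2 start, with signal 301, and is also that of the prefoldin gene pfd-4. For hsp-75 it lay 7638 bp away, ahead of ndus-8, with signal 207. Whether these genes are transcribed from those promoters was not examined.

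**Figure D5:**
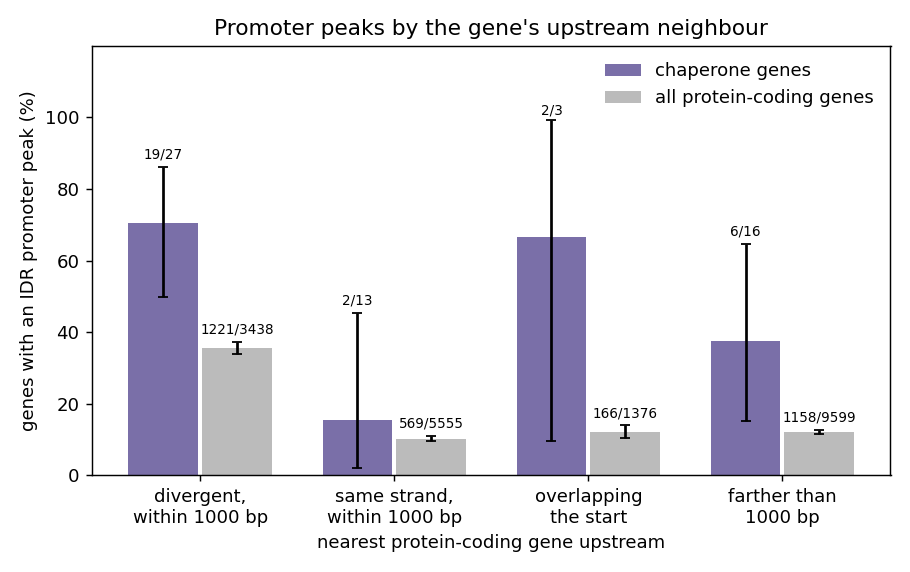
Share of genes with an IDR promoter peak (%) by the arrangement of the nearest protein-coding gene upstream, for chaperone genes (violet) and all protein-coding genes (grey). A summit between divergent genes can count for both. Lines give 95% exact intervals and numbers the genes with a peak over the genes in the class; chaperone genes stand at 70.4% with a divergent neighbour and 15.4% behind a gene on the same strand.

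Heat shock element cores were searched on both strands in the 300-base promoter window, 250 bases before to 50 after the outermost start of each gene. A core, GAANNTTC or TTCNNGAA, was present in 28 of 59 chaperone promoters (47.5%), against 32.5% of all protein-coding promoters. Overlapping cores 5 bases apart, which make a run of 3 units, were present in 11 of 59 (18.6%), against 1.97% of all promoters. These were the promoters of the 6 hsp-16 genes, hsp-70, hsp-1, hsp-90, hsp-110 and dnj-12, so 7 of 8 stress-inducible and 3 of 15 constitutive genes held such a run. The hsp-16 genes of the duplicated locus lie in identical copies, and divergent hsp-16 genes share the stretch between them. The 7 of 8 and the 11 of 59 therefore count the same sequence more than once. A core was present in the window of 16 of 29 genes with a peak and of 12 of 30 without. At hsp-90, dnj-20 and dnj-25 the peak lay near another start of the gene. For these genes the window searched is not the promoter with the peak, and those of hsp-90 and dnj-25 held a core. More widely, the median distance from summit to nearest start was 312 bp at the 29 bound genes, against 250 bases searched upstream. Most summits thus lay outside the windows, whose counts do not describe the sequence at the peaks. At the summits themselves, 5 of 28 windows of 101 bases held a core (17.9%: dnj-13, hsp-90, hsp-110, cct-1 and cct-5), against 5.95% of all 4384 IDR windows. In the stretch between hsp-16.2 and hsp-16.41 printed above, the cores started 91 and 86 bp before and 63 bp after the summit on the plus strand, so none lay within 50 bp of it.

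The T-box word GGTGTGA, searched on both strands, was present in 0 of 59 chaperone promoters and 0 of 28 summit windows, against 2.30% of all promoters and 0.958% of all IDR windows. The absence of these letters says nothing about other forms of the site. The word TGACGTG, a core of the ER stress element, was present in 5 chaperone promoters (8.47%), those of dnj-20, dnj-28, dnj-29, hsp-3 and hsp-4, against 2.93% of all promoters. Of these 5, hsp-4 alone had no IDR peak, but the dnj-20 peak lay near another start than the one whose window held the word. The dnj-29 summit, 300 bp upstream of its start, also lay outside the window. The median GC content of the summit windows was 46.5% at the chaperone genes and 46.5% over all IDR peaks.

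Other genes of the chaperone network, on lists drawn up with results of these peaks known, had a promoter peak in 27 of 40 cases (67.5%, interval 50.9% to 81.4%), against 15.6% of all protein-coding genes. None of the 4 genes of the heat shock factor group, hsf-1, its binding protein hsb-1, ddl-1 and ddl-2, had one, and a count of 0 of 4 allows a share of up to 60.2%. Of 11 cochaperones 8 did, led by the Hsp70 exchange factor bag-1 (signal 643), the Hsp90 ATPase activator ahsa-1 (550) and sti-1, which links Hsp70 to Hsp90 (444). Of the 6 prefoldin genes, whose products hand actin and tubulin to the CCT ring, 4 had a peak, from 286 at pfd-5 to 491 at pfd-1. Among the ER folding genes 5 of 6 did, led by crt-1, the calreticulin gene (627), and the exception was cnx-1, the calnexin gene. Of 7 genes of organelle stress signalling 6 did, including xbp-1 (351), atf-6 (286), the mitochondrial stress factor atfs-1 (196) and ire-1 (103). Of 6 chaperones with other names 4 did, led by enpl-1, the ER Hsp90 gene (522), with F44E5.4 and F44E5.5 among them.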

How the data were processed

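ChIP-seq peak lists of 2 biological replicates were used. Per the labels and the notes deposited with the samples, the authors called regions on ce11 from each replicate's alignment and a control's; the aligner, caller, IDR threshold and control strain are not given in the sources used here. Peak signal is as deposited by the authors, and the summit offset in bases from the region's start, also as deposited, gave the position. Of the ce10 lists only the number of IDR peaks (5737) was used. Genes came from Ensembl release 115 (19973 protein-coding genes, 29314 transcript starts). RefSeq gave the symbols hsp-16.11 and hsp-16.49, which Ensembl names hsp-16.1 and hsp-16.48. A summit counted for every gene whose promoter held it. Regions were matched across lists by the nearest summit within 100 bp. Members, lists and motifs were chosen with earlier results of these data known.

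The genes named are all chaperone genes with an IDR promoter peak, the stress-inducible and cct genes, and up to 6 just below the threshold; other names complete a short list or were chosen after their values were seen. Intervals are exact Clopper-Pearson intervals at 95% and cover counting only. Scripts used Python 3.11.15, NumPy 2.4.6, SciPy 1.17.1 and matplotlib 3.10.9, and the promoter assignment was tested on simulated data. Alternatives changed the promoter width, assignment, threshold, replicates and match distance. Signal tracks were not analysed here.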

Additional observations from a re-analysis of the deposited data

How the results depend on the processing

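With the nearest transcript start within 2000 bp only, 16 chaperone genes had a peak, with 5 hsp genes, 1 cct gene, 3 constitutive and 1 stress-inducible gene; the dnj count was 10 and that of all protein-coding genes 2924. Among the 2192 strongest IDR peaks, 0 stress-inducible genes and 1896 protein-coding genes had one. Of the small heat shock genes taken as not induced by heat, 2 of 5 had one with the nearest start and 1 of 5 had one with promoters from 2000 bp upstream, counts added after seeing the data. The number of chaperone genes was 25 with promoters from 500 bp upstream to 100 bp downstream, 31 from 2000 bp upstream, 29 in a longer pooled list, 30 with any overlap, and 27 without replicate 1 or without replicate 2. Of the 29 bound genes, 7 were bound under all 8 of these alternatives and 26 in each replicate alone, and 27 genes were unbound throughout. The median signal was 346 with the narrow promoter and 333 with each summit counted once. No paired analysis was possible because there is only 1 group. Depth limits what the lists can show by an amount that is unknown.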

Other observations

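On reading the summit windows of the chaperone genes, 2 short words were noticed and then counted on both strands, so their counts describe the windows they were picked from and were not tested. GCGC was present in 20 of 28 chaperone summit windows (71.4%), against 40.5% of all 4384 IDR windows, at the same median GC content of 46.5%. It was present in 42.4% of chaperone promoter windows of 300 bases, against 28.7% of all, and in 0 of 8 stress-inducible ones. Several of those 8 windows hold the same hsp-16 sequence, so they are not 8 separate cases. GTCTC was present in 9 of 28 chaperone summit windows (32.1%), against 36.8% of all IDR windows.

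By chromosome, promoter peaks were present at 3 of 9 chaperone genes on I, against 20.9% of all protein-coding genes there, at 6 of 11 on II, against 13.6%, and at 5 of 11 on III, against 22.7%. They were present at 4 of 9 on IV, against 15.5%, at 8 of 14 on V, against 10.8%, and at 3 of 5 on X, against 14.6%.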
